A study of Saccharomyces cerevisiae with 6 samples.

Results

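The genes described here are 38 genes of Saccharomyces cerevisiae for making fatty acids, phospholipids and storage lipids, of 6256 genes with a probe on the array. They were chosen by standard name, and each name was matched through its systematic open reading frame name to 1 probe. All 38 were well above background on all 6 arrays. The study compared BH13, a mutant strain selected for better resistance to coniferyl aldehyde, a phenolic growth inhibitor derived from lignin, with its reference strain, called REF here. Each strain had 3 samples of untreated log-phase culture in yeast minimal medium at 30 °C, harvested at an OD600 of about 1.0, and each sample was hybridised to its own one-colour array. The labels give the genotypes as mutant strain BH13 and reference strain, and name no mutation or strain background.

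Yeast makes fatty acids from acetyl-CoA with acetyl-CoA carboxylase and a cytosolic fatty acid synthase, and joins them to glycerol 3-phosphate to form phosphatidate. Phosphatidate goes either through CDP-diacylglycerol to the membrane phospholipids or through diacylglycerol to triacylglycerol, the storage fat, and diacylglycerol can also take up choline or ethanolamine in the Kennedy pathway. Many of these genes are controlled by inositol. The activators Ino2 and Ino4 bind as a pair to a shared promoter element, and the repressor Opi1 enters the nucleus and holds the genes down when phosphatidate in the endoplasmic reticulum is scarce.

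Of the 38 genes, 9 were higher and 19 lower in BH13, and 10 were not called, by limma with Benjamini-Hochberg adjustment over all 5890 genes tested and a threshold of 0.05. The share called was 73.7%, and 81.3% of all genes tested were called in this comparison. Higher calls were 23.7% of the lipid genes, where 38% of all genes were called higher, and lower calls were 50%, where 43.3% of all genes were called lower. With cyclic loess normalization the split was 12 higher and 16 lower. At least 2-fold differences were called for 12 genes, which is 31.6% against a background of 35.5%. Of these, 3 were higher, or 7.89% against 17.9% of all genes, and 9 were lower, or 23.7% against 17.5% of all genes. FAS2 and PCT1 were close to the 2-fold limit, a log2 size of 1. With normexp background correction FAS2 was at -0.99 and PCT1 at -0.93, both still called lower. FAS2 was also at -0.99 with median centring and -0.93 with cyclic loess normalization. The median log2 difference, BH13 minus REF, was -0.18 over the lipid genes and -0.07 over all genes, and the median size of the difference was 0.49 over the lipid genes and 0.69 over all genes. Each difference is on the log2 scale and is followed by its standard error in the limma fit (n = 3 arrays in each strain). Genes whose values did not overlap between strains are pointed out below, and 83.7% of all genes tested did not overlap. In bulk RNA, less transcript per cell and fewer cells with the transcript cannot be told apart.

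**Figure D1:**
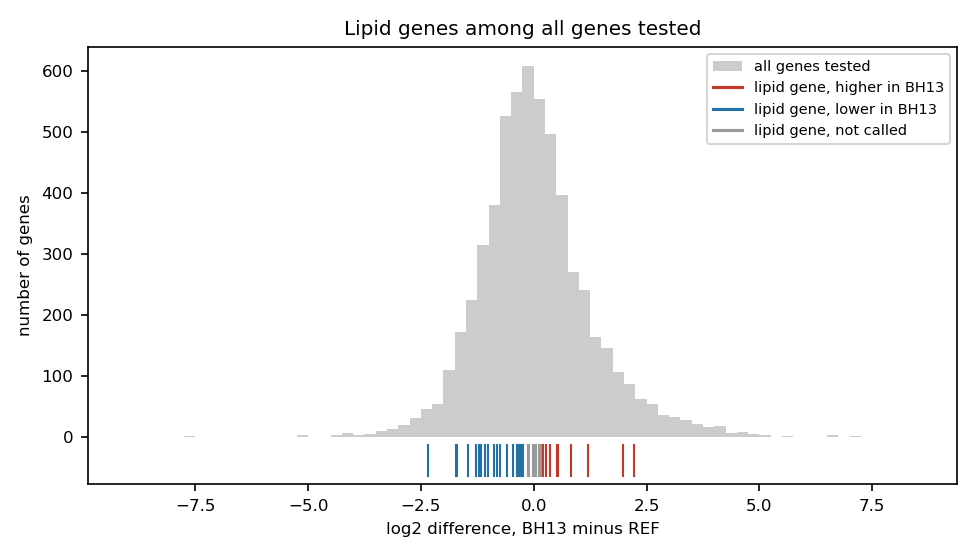
Histogram of the log2 difference, BH13 minus REF, of the 5890 genes tested (vertical axis: number of genes), with a tick under the axis for each of the 38 lipid genes, red where higher in BH13, blue where lower and grey where not called. The lipid genes lie between -2.35 and 2.22, inside the range of all genes, -8.38 to 7.98.

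The arrays of a strain were close to each other, and batch follows strain. Across the genes tested, log2 signals correlated at 0.994 to 0.998 between arrays of one strain and at 0.854 to 0.877 between strains. The BH13 arrays shared 1 slide and were scanned on one day, whereas the REF arrays came from 2 different slides and a different scanning day. Per the file headers, the scanning days of the strains were years apart. No slide or scanning day held arrays of both strains, so that strain cannot be told apart from slide or scanning day. Of 7 markers of a cells all 7 were lower in BH13, and their summed scaled signal was -1.86 to -1.81 on the log2 scale in BH13 and 2.91 to 2.97 in REF. On none of the BH13 arrays were MFA2 and AGA2 well above background. Among 10 genes listed as markers of exit from log phase 9 rose and 1, SSA3, fell, with a median difference of 3.92. Their summed signal was 5.57 to 5.73 in BH13 and 0.65 to 1.16 in REF. The labels give log-phase culture at the same OD600 for both strains, and whether BH13 cells had left log phase was not tested. Of 5 alpha-cell markers 4 were tested, of which 2 were higher and 1 lower, with a summed signal of -2.66 to -2.37 in BH13 and -2.52 to -2.23 in REF. These strain-wide differences accompany every gene group below, and their part in the lipid gene differences was not tested.

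INO1 and the genes of its regulators moved in different directions. INO1 encodes inositol 3-phosphate synthase, which makes inositol from glucose 6-phosphate and is the classic target of Ino2, Ino4 and Opi1. Its scaled log2 signal, which is relative to the 75th percentile of each array, was -1.05, -0.76 and -0.74 in BH13 against -3.20, -3.05 and -2.96 in REF. All 3 BH13 values lay above all 3 REF values, and the gene rose by 2.22 ± 0.11, or 4.65-fold (limma adjusted p = 3.72e-07). This was the largest increase among the 38 genes.

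INO2 encodes the activator subunit of the Ino2-Ino4 pair, and its probe read -5.25, -4.98 and -5.23 in BH13 against -3.29, -3.50 and -3.51 in REF. The strains did not overlap, and INO2 fell by 1.72 ± 0.10 (limma adjusted p = 1.11e-06). This is a dim probe, and with normexp background correction the INO2 difference was -1.04, still called. OPI1, the gene of the repressor, had -1.09, -0.93 and -1.02 in BH13 against 0.13, 0.21 and 0.26 in REF. It fell by 1.21 ± 0.08 with no overlap (limma adjusted p = 1.74e-06). INO4, the DNA-binding partner of Ino2, had -1.48, -1.69 and -1.49 in BH13 against -1.95, -1.98 and -1.81 in REF, and rose by the small amount of 0.36 ± 0.09 (limma adjusted p = 0.00519). Transcripts of the activator INO2 and of the repressor OPI1 were thus both lower in BH13, while INO4 was slightly higher.

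The inositol transporter genes did not follow INO1. ITR1, the main inositol transporter, had 2.96, 3.01 and 3.14 in BH13 against 3.88, 3.76 and 3.91 in REF and fell by 0.82 ± 0.08 (limma adjusted p = 2.47e-05). ITR2, its minor relative, had 0.19, 0.11 and 0.28 in BH13 against 0.84, 0.71 and 0.80 in REF and fell by 0.59 ± 0.08 (limma adjusted p = 0.000143). Neither overlapped between strains. In the list of 16 inositol-regulated phospholipid genes, taken from textbook knowledge and including INO2 and OPI1, INO1 was the 1 gene that was higher. Another 12 were lower and 3 were not called, with a list median of -0.37. The share called was 81.2%, against 81.3% of all genes tested. Lower calls were 75% of the list against 43.3% of all genes, and higher calls 6.25% against 38%. Like the other lists, this one was chosen with earlier results of these data known. The members not called were OPI3, CKI1 and ACC1.

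**Figure D2:**
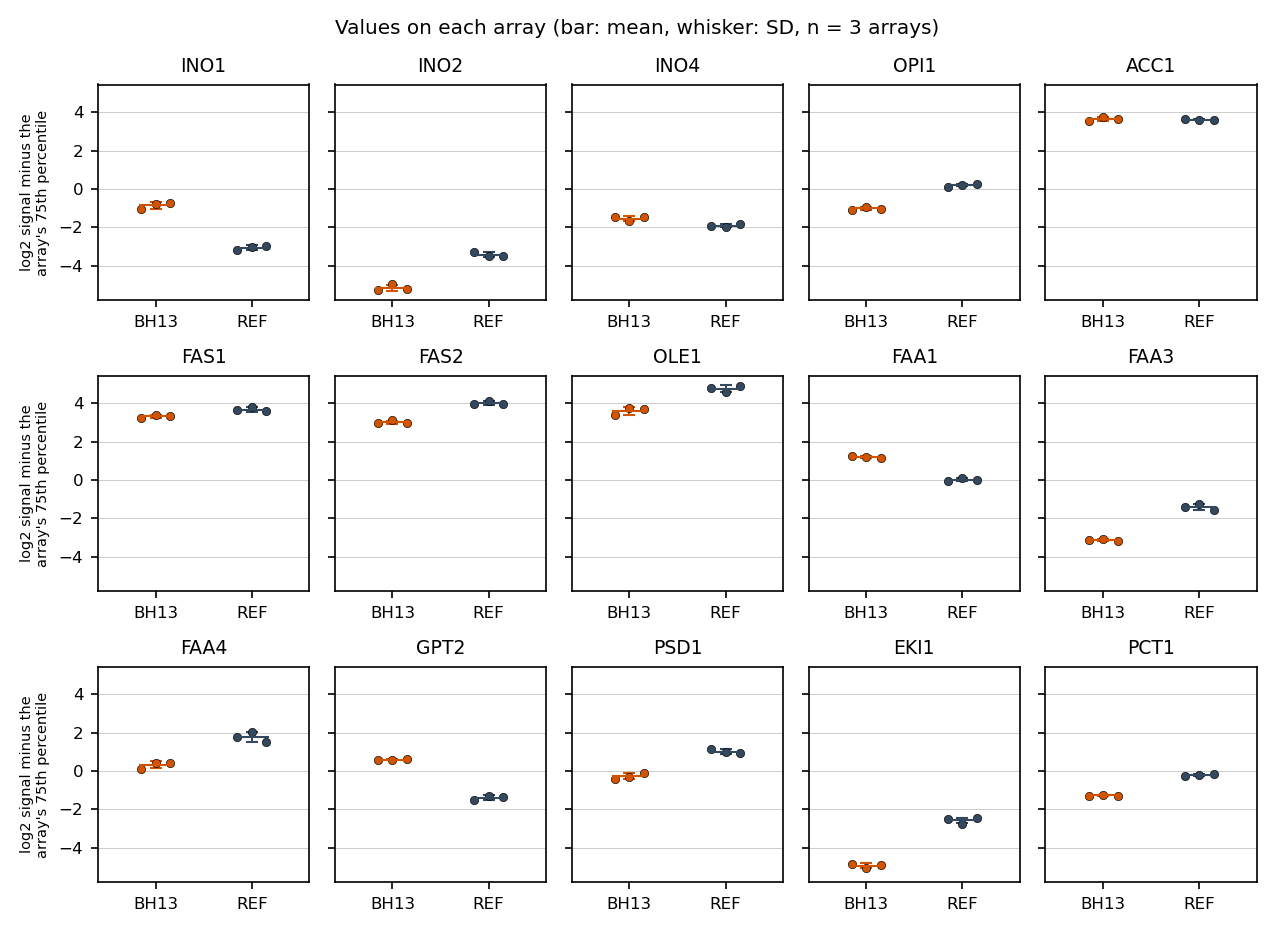
Log2 signal relative to the 75th percentile of each array for 15 lipid genes on the 3 BH13 arrays (orange, left) and the 3 REF arrays (dark blue, right), with the mean as a bar and the SD as a whisker. INO1, INO4, FAA1 and GPT2 are higher in BH13, ACC1 overlaps between strains, and the other 10 genes are lower in BH13.

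Fatty acid synthesis was lower at 3 of its 5 genes, or 60%, where 43.3% of all genes tested were called lower. The share called in either direction was also 60%, against 81.3% of all genes. ACC1, acetyl-CoA carboxylase, which makes malonyl-CoA in the committed step, had 3.54, 3.74 and 3.66 in BH13 against 3.63, 3.62 and 3.60 in REF. The strains overlapped, and the difference was 0.03 with a 95% confidence interval of 0.18 on either side (limma adjusted p = 0.72). The fatty acid synthase has a beta subunit encoded by FAS1 and an alpha subunit encoded by FAS2. FAS1 had 3.21, 3.39 and 3.35 in BH13 against 3.63, 3.81 and 3.58 in REF and fell by 0.36 ± 0.09 (limma adjusted p = 0.00552). FAS2 had 2.95, 3.10 and 2.95 in BH13 against 3.96, 4.12 and 3.97 in REF and fell by 1.02 ± 0.08, or 2.02-fold (limma adjusted p = 7.21e-06). Both subunit genes were therefore lower without overlap.

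OLE1 encodes the only fatty acid desaturase of this yeast, which makes palmitoleic and oleic acid. Its values were 3.38, 3.77 and 3.68 in BH13 against 4.79, 4.59 and 4.92 in REF, and it fell by 1.16 ± 0.13 (limma adjusted p = 3.83e-05). ELO1, an elongase of medium-chain fatty acids, had 0.41, 0.49 and 0.75 in BH13 against 0.50, 0.48 and 0.54 in REF. It overlapped between strains and was not called, at 0.05 ± 0.10 (limma adjusted p = 0.672).

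Among the 38 genes are 3 acyl-CoA synthetase genes, whose products activate free fatty acids, and these were called at 2-fold or more, in both directions. Of all genes tested, 35.5% were called at 2-fold or more. FAA1, the main synthetase for imported fatty acids, had 1.27, 1.20 and 1.16 in BH13 against -0.05, 0.08 and 0.0016 in REF and rose by 1.20 ± 0.08 (limma adjusted p = 1.43e-06). FAA4, its closest functional relative, had 0.11, 0.43 and 0.44 in BH13 against 1.76, 2.04 and 1.53 in REF. It fell by 1.45 ± 0.14, or 2.73-fold (limma adjusted p = 2.24e-05). FAA3, another synthetase gene, had -3.15, -3.06 and -3.19 in BH13 against -1.42, -1.28 and -1.59 in REF and fell by 1.71 ± 0.09 (limma adjusted p = 7.54e-07). The strains did not overlap for any of the 3 genes, where 83.7% of all genes tested did not overlap. Of the 3, 1 rose and 2 fell. FAA2, a synthetase gene outside the 38 that was named after its values were seen, was lower at -0.63 ± 0.13 (limma adjusted p = 0.00206), or -0.32 with normexp background correction.

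Among the genes that build phosphatidate, GPT2 stood apart from its partner SCT1. Both encode glycerol 3-phosphate acyltransferases, which catalyse the first acylation of glycerol 3-phosphate. GPT2 had 0.56, 0.58 and 0.62 in BH13 against -1.51, -1.29 and -1.37 in REF and rose by 1.98 ± 0.08, or 3.94-fold (limma adjusted p = 1.59e-07). SCT1 had -2.22, -2.12 and -2.11 in BH13 against -2.38, -2.23 and -2.43 in REF. Its values did not overlap, but at 0.20 ± 0.08 it missed the threshold (limma adjusted p = 0.0524), and it was called higher under 6 alternatives, among them the fit without REF replicate 2 (0.26, limma adjusted p = 0.0226). SLC1, an acyltransferase of the second acylation, had a difference of -0.13 ± 0.08 and was not called (limma adjusted p = 0.139).

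In the CDP-diacylglycerol pathway 4 of 7 genes were lower, 1 was higher and 2 were not called. That is 71.4% called against 81.3% of all genes tested, and 57.1% lower against 43.3%. CDS1, CDP-diacylglycerol synthase, had 0.51, 0.58 and 0.61 in BH13 against 1.39, 1.34 and 1.22 in REF and fell by 0.75 ± 0.08 (limma adjusted p = 2.73e-05). Phosphatidylserine decarboxylase, which makes phosphatidylethanolamine, is encoded by PSD1 for mitochondria and by PSD2 for the endosome and Golgi compartments. PSD1 had -0.40, -0.32 and -0.09 in BH13 against 1.13, 0.99 and 0.92 in REF and fell by 1.28 ± 0.10 (limma adjusted p = 5.85e-06). PSD2 had -0.84, -0.84 and -0.80 in BH13 against -1.19, -1.42 and -1.44 in REF and rose by 0.52 ± 0.09 (limma adjusted p = 0.000587). The decarboxylase genes of the 2 compartments thus differed in direction, each without overlap.

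The phosphatidylserine and phosphatidylcholine steps showed small differences. CHO1, phosphatidylserine synthase, had 2.18, 2.12 and 2.20 in BH13 against 2.37, 2.31 and 2.77 in REF, with a difference of -0.32 ± 0.12 (limma adjusted p = 0.0412). The CHO1 call ended without any 1 of BH13 replicates 1, 2 and 3 or REF replicate 3, where limma adjusted p was 0.0716 to 0.103. REF replicate 3 was the highest of the 6 values, and without it the difference was -0.17. CHO2, the first phosphatidylethanolamine methyltransferase, was lower at -0.26 ± 0.10 (limma adjusted p = 0.0386). That call ended without BH13 replicate 1 (-0.27) or 2 (-0.18) or REF replicate 1 (-0.21) or 3 (-0.26), where limma adjusted p was 0.0683 to 0.125. With cyclic loess normalization neither was called, CHO1 at -0.19 and CHO2 at -0.14, and the same held with median centring, at -0.29 for CHO1 and -0.23 for CHO2. The CHO1 call also ended with no filter on dim probes (limma adjusted p = 0.0527), and that of CHO2 with the slide as a random block (limma adjusted p = 0.0503).

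OPI3, the methyltransferase of the last steps to phosphatidylcholine, had 4.30, 4.52 and 4.61 in BH13 against 4.37, 4.34 and 4.38 in REF. The strains overlapped, and the difference of 0.11 was not called, with a 95% confidence interval of 0.21 on either side (limma adjusted p = 0.281). PIS1, phosphatidylinositol synthase, which uses the inositol that Ino1 and the transporters supply, had a difference of 0.16 ± 0.09 and was not called (limma adjusted p = 0.123). It was called higher without REF replicate 3 (0.22, limma adjusted p = 0.0377) and with cyclic loess normalization (0.25, limma adjusted p = 0.0247).

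The Kennedy pathway had no gene called higher and 4 of 6 called lower. These 4 are 66.7% of the group, where 81.3% of all genes tested were called and 43.3% were called lower. EKI1, ethanolamine kinase, had -4.85, -5.08 and -4.88 in BH13 against -2.52, -2.76 and -2.48 in REF. It fell by 2.35 ± 0.10, or 5.11-fold (limma adjusted p = 2.16e-07). This was the largest difference among the 38 genes on the processed signal. The EKI1 probe is dim in BH13, and with normexp background correction its log2 difference was -1.64, smaller in size than 2.03 for INO1 and 1.96 for GPT2. With cyclic loess normalization EKI1 was at -2.33 and INO1 at 2.35. PCT1, the enzyme that activates phosphocholine to CDP-choline, had -1.28, -1.23 and -1.32 in BH13 against -0.28, -0.19 and -0.15 in REF and fell by 1.07 ± 0.07 (limma adjusted p = 2.38e-06). Neither gene overlapped between strains.

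Their counterparts in the other head-group branch were not called. CKI1, choline kinase, had a difference of -0.12 ± 0.09 (limma adjusted p = 0.236), and ECT1, which makes CDP-ethanolamine, had 0.11 ± 0.08 (limma adjusted p = 0.22). ECT1 was called higher, at 0.19, with cyclic loess normalization (limma adjusted p = 0.0477). The last step is shared by CPT1, a cholinephosphotransferase, and EPT1, an ethanolaminephosphotransferase. EPT1 fell by 0.38 ± 0.08 (limma adjusted p = 0.00257). CPT1 was lower at -0.23 ± 0.08 (limma adjusted p = 0.0248), and its call ended with normexp background correction (-0.13, limma adjusted p = 0.179), with cyclic loess normalization (-0.15) and without BH13 replicate 1 (-0.19) or 2 (-0.23) or REF replicate 1 (-0.21) or 3 (-0.21).

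**Figure D3:**
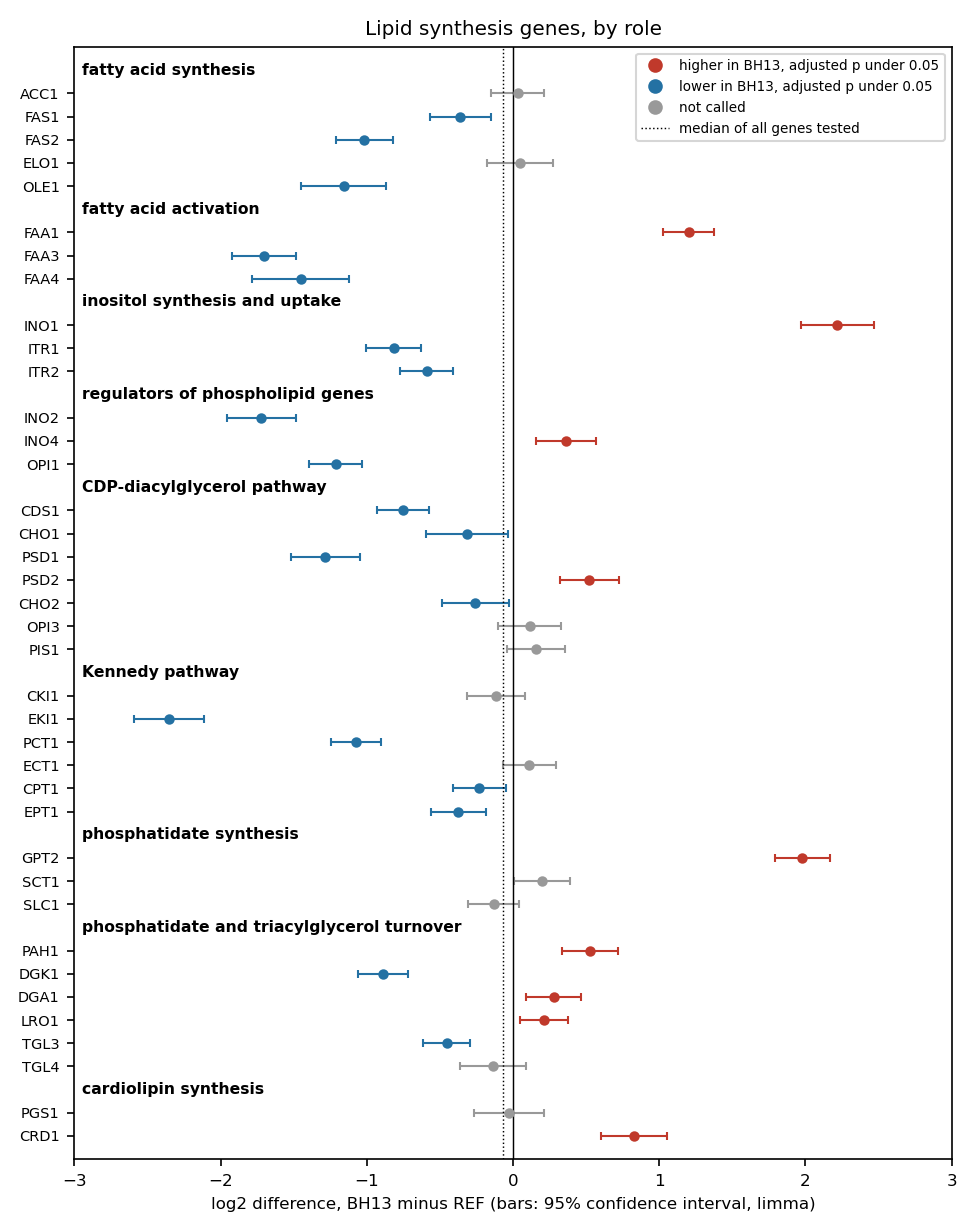
Log2 difference, BH13 minus REF, with its 95% confidence interval for each of the 38 lipid genes, grouped by role, with red for higher in BH13, blue for lower and grey for not called, and a dotted line at the median of all genes tested. The largest differences are those of EKI1 at -2.35, INO1 at 2.22 and GPT2 at 1.98, and no gene of phosphatidate and triacylglycerol turnover or of cardiolipin synthesis reaches a size of 1.

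At the branch between phospholipids and storage fat, the opposing enzymes differed in direction by amounts under 2-fold. PAH1 encodes the phosphatidate phosphatase that makes diacylglycerol, and had -0.19, -0.05 and -0.15 in BH13 against -0.56, -0.65 and -0.76 in REF. It rose by 0.53 ± 0.08 (limma adjusted p = 0.000376). DGK1 encodes the diacylglycerol kinase that runs the reverse reaction, and had -0.75, -0.66 and -0.64 in BH13 against 0.16, 0.19 and 0.26 in REF. It fell by 0.89 ± 0.07 (limma adjusted p = 6.95e-06). Neither gene overlapped between strains.

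Among the 38 genes, both triacylglycerol-forming acyltransferase genes were slightly higher. DGA1, which uses acyl-CoA, had -1.34, -1.29 and -1.27 in BH13 against -1.62, -1.66 and -1.45 in REF, a difference of 0.28 ± 0.08 (limma adjusted p = 0.0133). LRO1, which takes the acyl group from a phospholipid, had 0.69, 0.70 and 0.71 in BH13 against 0.47, 0.57 and 0.43 in REF, a difference of 0.21 ± 0.07 (limma adjusted p = 0.0237). With normexp background correction neither was called, DGA1 at 0.19 (limma adjusted p = 0.0501) and LRO1 at 0.18 (limma adjusted p = 0.072). The LRO1 call also ended without BH13 replicate 1 (0.22) or 3 (0.21) or REF replicate 1 (0.20) or 3 (0.18). The storage lipid genes ARE1 and ARE2, outside the 38, were named after their values were seen. ARE1 was not called at 0.20 ± 0.10 (limma adjusted p = 0.0971), and ARE2 was lower at -0.95 ± 0.10 (limma adjusted p = 3.14e-05). Of the lipases that release fatty acids from triacylglycerol, TGL3 fell by 0.45 ± 0.07 (limma adjusted p = 0.000359), and TGL4 had a difference of -0.14 ± 0.10 and was not called (limma adjusted p = 0.222). Of related lipase genes outside the 38, named after their values were seen, TGL2 rose by 1.26 ± 0.12 (limma adjusted p = 1.53e-05) and TGL5 was lower at -0.25 ± 0.09 (limma adjusted p = 0.0293).

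Cardiolipin, the phospholipid particular to mitochondria, is made from CDP-diacylglycerol by way of phosphatidylglycerol phosphate. CRD1, cardiolipin synthase, had -0.68, -0.65 and -0.64 in BH13 against -1.50, -1.64 and -1.30 in REF and rose by 0.83 ± 0.10 (limma adjusted p = 6.35e-05). PGS1, which makes phosphatidylglycerol phosphate, had -1.91, -1.81 and -1.96 in BH13 against -2.02, -1.91 and -1.67 in REF and overlapped between strains. Its difference was -0.03 with a 95% confidence interval of 0.24 on either side (limma adjusted p = 0.814).

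Pairs of genes with related products were set side by side for 6 pairs. The difference between the 2 log2 differences was 2.65 for FAA1 minus FAA4, with a pooled SD within strains of 0.23. It was -1.78 for SCT1 minus GPT2 (pooled SD 0.076) and 2.24 for CKI1 minus EKI1 (pooled SD 0.22). In these 3 pairs one gene was called at 2-fold or more and the other was called in the opposite direction or not called. The remaining pairs differed less. The values were -0.23 for ITR1 minus ITR2 (pooled SD 0.055) and 0.15 for CPT1 minus EPT1 (pooled SD 0.11). For TGL3 minus TGL4 the value was -0.32 (pooled SD 0.16). The within-array difference did not overlap between strains in any of the 6 pairs. Of single genes tested, 83.7% did not overlap. An exact two-sided permutation test gave p = 0.1 for each pair (0.1 adjusted over the 6). That is the smallest p that 3 arrays against 3 allow, and any pair without overlap gets it. Probe sequences were not used here, so how far a probe also reads the related gene is not known.

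**Figure D4:**
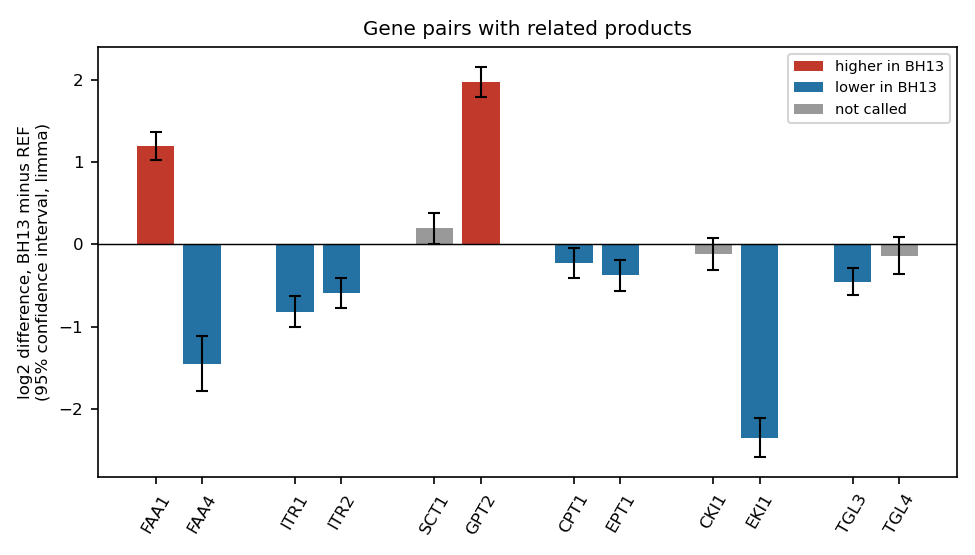
Log2 difference, BH13 minus REF, as bars with the 95% confidence interval from limma for 6 pairs of genes with related products, red where higher in BH13, blue where lower and grey where not called. FAA1 at 1.20 and FAA4 at -1.45 lie on opposite sides of 0, and GPT2 at 1.98 and EKI1 at -2.35 differ from partners that were not called.

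Spread between arrays was small beside most of these differences. The SD of the 38 genes over 3 arrays had a median of 0.079 in BH13 and 0.10 in REF, and at most 0.20 in BH13, for OLE1, and 0.25 in REF, for FAA4. The values of the strains did not overlap for 30 of the 38 genes, or 78.9%, where 83.7% of all genes tested did not overlap. The number of arrays limits the precision. In the deposited table of processed values by the authors, 8 of the 38 genes appear. These were INO1, GPT2 and FAA1, higher in BH13, and OLE1, FAA3, OPI1, EKI1 and PCT1, lower in BH13. Their differences computed from that table ran from -2.43 for EKI1 to 2.26 for INO1. INO2, FAA4, PSD1 and FAS2, called here at 2-fold or more, do not appear in it. Every probe of that table was called when it was tested alone, so the calls of these 8 genes are no separate check.

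The wider pathway was followed in a list of 78 other lipid genes, of which 77 were tested, 26 were higher, 36 lower and 15 not called. The share called was 80.5%, close to the 81.3% of all genes, with 33.8% higher against 38% of all genes and 46.8% lower against 43.3%. The median difference of that list was -0.13. Among 9 regulators of lipid genes, 5 were lower and 2 higher, or 77.8% called. SPO7, a subunit of the phosphatase that activates Pah1, fell by 1.41 ± 0.09 (limma adjusted p = 1.2e-06). UME6, a DNA-binding repressor best known for meiotic genes, fell by 1.17 ± 0.11 (limma adjusted p = 1.24e-05), and normexp background correction gave -0.62. MGA2, an activator of OLE1, rose by 0.90 ± 0.07 (limma adjusted p = 5.71e-06), while OLE1 itself fell. SPT23 and NEM1 of the same list, named after their values were seen, were not called. SPT23 was at 0.13 ± 0.10 and NEM1 at -0.13 ± 0.12 (limma adjusted p = 0.232 for SPT23 and 0.341 for NEM1).

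Of 26 genes of phospholipid remodelling, breakdown and transfer, 11 were higher, 14 lower and 1 not called. The share called was 96.2%, against 81.3% of all genes tested, with 42.3% higher against 38% and 53.8% lower against 43.3%. The phospholipase B gene PLB3 fell by 1.81 ± 0.09 (limma adjusted p = 5.15e-07). PLB1 and PLB2, named after their values were seen, differed in direction. PLB1 was higher at 0.30 ± 0.08 and PLB2 lower at -1.10 ± 0.10 (limma adjusted p = 0.00632 for PLB1 and 1.36e-05 for PLB2). CLD1, a deacylase that acts on cardiolipin, rose by 1.65 ± 0.09, and MDM35, a partner of lipid transfer proteins between the mitochondrial membranes, rose by 1.45 ± 0.16 (limma adjusted p = 7.33e-07 for CLD1 and 4.07e-05 for MDM35). Genes of cardiolipin synthesis on this list, named after their values were seen, were lower, GEP4 at -0.92 ± 0.11 and TAM41 at -0.32 ± 0.10 (limma adjusted p = 7.88e-05 for GEP4 and 0.0205 for TAM41), whereas CRD1 rose.

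Among 9 phosphoinositide genes, 2 were higher, 3 lower and 4 not called, or 55.6% called against 81.3% of all genes tested. SAC1, a phosphatase of phosphatidylinositol 4-phosphate, fell by 1.29 ± 0.08, and the inositol monophosphatase gene INM1, which releases free inositol from the product of Ino1, fell by 1.00 ± 0.11 (limma adjusted p = 1.34e-06 for SAC1 and 5.09e-05 for INM1). VPS34, the phosphatidylinositol 3-kinase gene, rose by 0.88 ± 0.08 (limma adjusted p = 1.32e-05). INM2, another gene for that enzyme, named after its values were seen, was not called at 0.06 ± 0.08 (limma adjusted p = 0.491). INO1 and INM1, genes of consecutive steps of inositol synthesis, thus differed in direction.

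Of 14 genes of acetyl-CoA, acyl-CoA and mitochondrial fatty acid synthesis, 4 were higher, 5 lower and 5 not called. That is 64.3% called, against 81.3% of all genes tested. ETR1, the enoyl reductase of mitochondrial fatty acid synthesis, rose by 1.96 ± 0.11 (limma adjusted p = 1.01e-06), while CEM1, the condensing enzyme of the same pathway, fell by 0.82 ± 0.07 (limma adjusted p = 6.09e-06). OAR1, its ketoacyl reductase, was lower at -0.84 ± 0.19, and that call ended with normexp background correction (-0.26, limma adjusted p = 0.154).

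In the list of storage lipids and lipid droplets, 19 of 20 genes were tested, with 7 higher, 9 lower and 3 not called. That is 84.2% called, close to the 81.3% of all genes tested. The 3 called genes with the largest differences, given next, are genes of glycerol metabolism and do not stand for the rest of the list. GUT2, the mitochondrial glycerol 3-phosphate dehydrogenase gene, rose by 1.91 ± 0.09, and GPD1, the cytosolic enzyme that makes glycerol 3-phosphate, by 1.61 ± 0.15. GUT1, glycerol kinase, fell by 1.28 ± 0.11 (limma adjusted p = 3.62e-07 for GUT2, 1.21e-05 for GPD1 and 1.15e-05 for GUT1). GPT2, which uses glycerol 3-phosphate, was among the 38 genes the second largest increase.

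**Figure D5:**
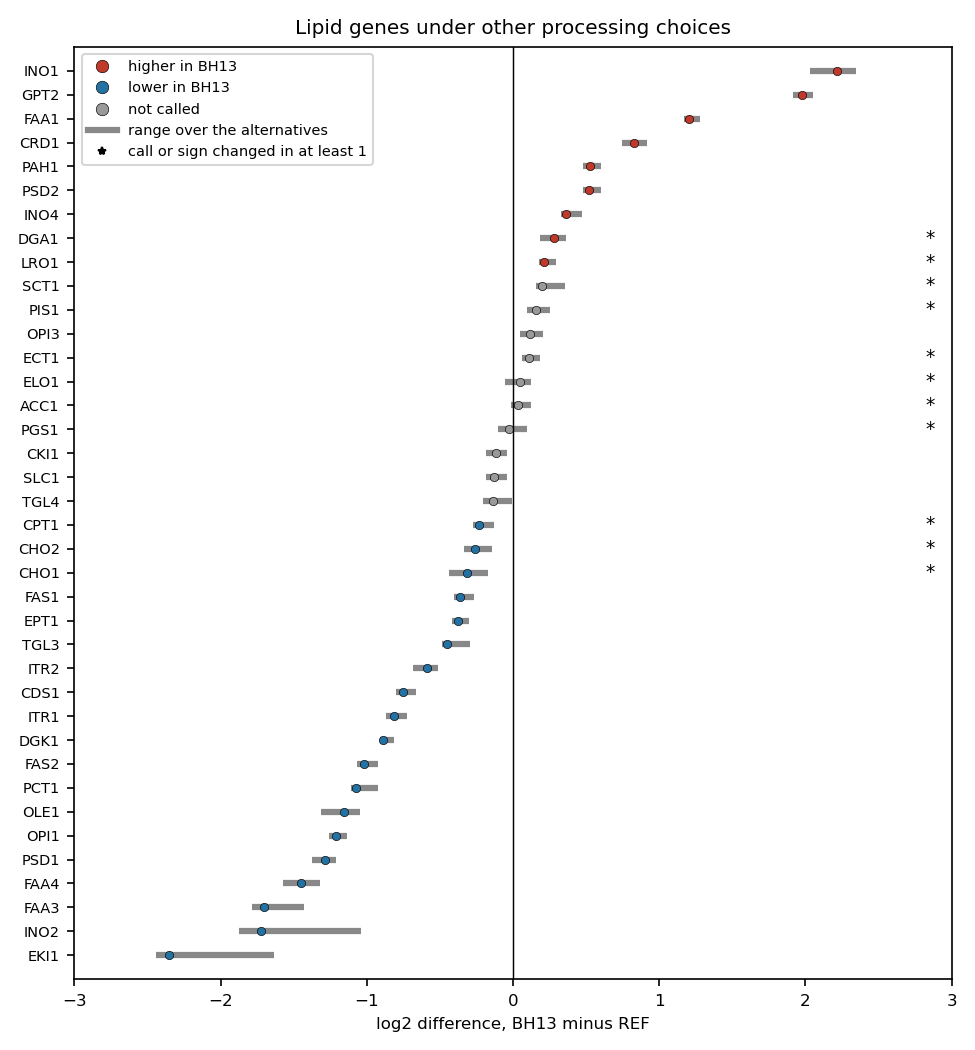
Log2 difference, BH13 minus REF, of the 38 lipid genes in order of size (points, coloured by call), with the range over the other processing choices as a grey bar and a star where a call or a sign changed in at least 1 of them. INO1, GPT2 and FAA1 keep their sign and call throughout, EKI1 and INO2 have the widest bars, and the starred genes all lie between -0.32 and 0.28.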

How the data were processed

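Total RNA of 3 BH13 and 3 REF samples was measured on Agilent yeast arrays with 1 dye, Cy3, per the labels' protocols. No label states that the 3 replicates come from independent cultures, and the p-values therefore rest on a spread that could be technical. Scanner files deposited for each array hold intensity per spot, from which the software had already subtracted background. Per the file headers this was Agilent Feature Extraction 10.7.3.1, and the submitters' processing notes give 9.1. A second deposited file by the authors gives log2 values of 1325 probes, centred on each probe's median. Its differences had a slope of 1.00 against those from the scanner files, so scale and direction could be told. Its filter is not given in the sources used here.

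Outlier and control spots were left out, log2 processed signals were averaged over the 2 spots per probe, and arrays were scaled by subtracting the 75th percentile (2301 to 4905 intensity units). Of gene spots, 91.4% to 93.8% were well above background and 0 were saturated. The 5890 genes well above background on at least 3 of 6 arrays were tested two-sided in limma 3.58.1 (lmFit, then eBayes; R 4.3.3), and p-values were adjusted by Benjamini-Hochberg. The steps were tested on simulated data. Systematic names were matched to RefSeq assembly R64 for 5756 of 6256 probes. Summed signals are log2 of the sum of scaled signals.

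The 38 genes and all lists were chosen with earlier results of these data known. All 38 are named, with values on every array for those called at 2-fold or more, the regulators and 5 central genes, and for others where a pair or a step is described. Up to 3 called genes with the largest differences are named from each other list. Promoter motifs and sequences were not analysed here. Alternatives are given in the closing section. Figures used matplotlib 3.10.9 under Python 3.11.15.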

Additional observations from a re-analysis of the deposited data

How the results depend on the processing

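Of the 38 lipid genes, 27 kept their direction and their side of the threshold under every alternative that measured them, 5 lost a call in at least 1 (CHO1, CHO2, CPT1, LRO1 and DGA1), 3 gained one (SCT1, PIS1 and ECT1), and 3 that were not called changed sign. PGS1 was at 0.0021 with median centring, 0.0097 with quantile normalization, 0.096 with cyclic loess normalization and -0.10 to 0.072 with 1 array left out. ACC1 was at -0.016 to 0.087 and ELO1 at -0.053 to 0.12 with 1 array left out. The cause was not tested. The authors' value table holds 1325 probes, and every one was called, 581 higher and 744 lower, with 3 lipid genes higher and 5 lower. It thus holds only genes that differ between these same arrays, and calls from it cannot test those of the main fit. With 1 array left out, 2135 to 2254 genes were higher and 2407 to 2515 lower, and of the lipid genes 8 to 10 were higher and 16 to 19 lower. With the replicate number as a block 2269 genes were higher and 2576 lower, and 9 lipid genes were higher and 19 lower. The labels do not say that the numbers pair the arrays. Same-numbered deviations from the strain mean correlated at 0.13, 0.24 and 0.0027. BH13 replicates 1 and 2 correlated best with their own number, but BH13 replicate 3 did so with REF replicate 1 (0.076), so pairing is not settled. With the slide as a random block 9 lipid genes were higher and 18 lower. No slide held both strains, so this fit cannot separate slide from strain. Normexp used median signals and gave 7 higher and 18 lower. The probes of INO2 and EKI1 are dim, and their differences shrank to -1.04 and -1.64 with normexp.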
